A study of Mus musculus with 38 samples.

Results

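The Adora2a-high and Adora2a-low libraries were 22 of the 38 libraries of a bulk RNA-seq study of mouse adBNST, the anterodorsal part of the BNST (bed nucleus of the stria terminalis). This limbic nucleus lies below the striatum and beside the septum. They were chosen by their own measured transcripts. Counts were divided by the column total to give counts-per-million (CPM), the 5 libraries with more than 7300 CPM of Mbp were set aside, and the other 33 were ranked by Adora2a. The 11 at the top form the Adora2a-high side, the 11 at the bottom the Adora2a-low side, and the 11 between them belong to neither. The working name of the contrast was striatum-rich against striatum-poor dissections. All mice were wild type (WT), and the labels give no strain or age. Stressed females and stressed males went through chronic variable mild stress for 6 weeks, and control females and control males did not. Of the 33 ranked libraries, 7 were from stressed females, 8 from control females, 9 from stressed males and 9 from control males. The labels do not say that each library came from its own animal, so p-values measure the spread between these libraries.

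Adora2a encodes an adenosine receptor, which in the rodent striatum sits mainly on the indirect-pathway projection neurons, where it opposes the D2 dopamine receptor through cAMP. The striatum is made largely of 2 kinds of inhibitory projection neuron. Those of the indirect pathway carry D2 receptors and enkephalin, and those of the direct pathway carry D1 receptors and substance P. Both use a shared set of cAMP and calcium signalling proteins, and the BNST also holds inhibitory neurons that express some of these genes. In bulk RNA, fewer cells of a type and less RNA per cell cannot be told apart.

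Adora2a lies on chromosome 10 between 75316877 and 75334792 (RefSeq, GRCm38.p6). On column totals its lowest, median and highest values were 102.3, 119.8 and 160.3 CPM in the Adora2a-high libraries, against 36.9, 66.0 and 78.5 CPM in the Adora2a-low libraries. These values chose the sides, so they carry no test. The ranking was continuous at both edges. The last library inside the high side was female control replicate 3 with 102.3 CPM, and the first outside it was female stressed replicate 4 with 100.7 CPM. At the lower edge, female control replicate 4 was inside with 78.5 CPM and female stressed replicate 6 was outside with 79.2 CPM. The 5 libraries over the Mbp limit had 159.3 to 234.3 CPM of Adora2a, and 4 of them were above every ranked library. The fifth, male control replicate 3, had 159.3 CPM, just under the 160.3 CPM of female stressed replicate 3, the highest that was ranked. The closest value over the limit was 8705 CPM of Mbp in male control replicate 3, and the closest under it was 6542 CPM in female control replicate 5.

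**Figure D1:**
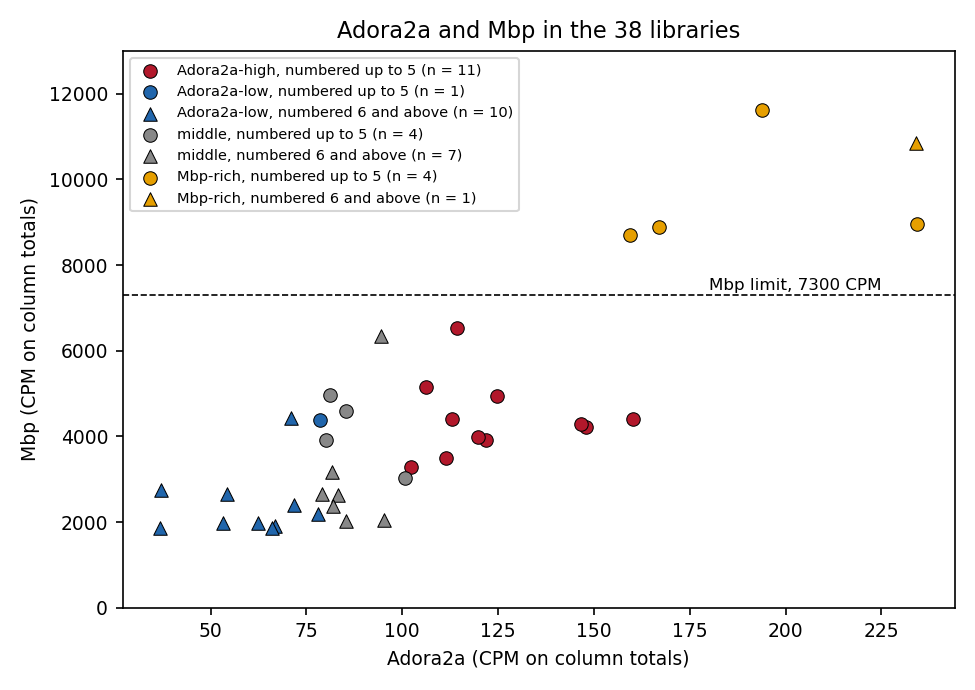
Adora2a (horizontal axis) and Mbp (vertical axis), both in CPM on column totals, in each of the 38 libraries, with colour for the side and shape for the replicate number. All 11 Adora2a-high libraries are circles (numbered up to 5), 10 of the 11 Adora2a-low libraries are triangles (numbered 6 and above), and the 5 libraries over the Mbp limit hold 159.3 to 234.3 CPM of Adora2a.

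The Adora2a-high side held 2 stressed female, 3 control female, 3 stressed male and 3 control male libraries. The Adora2a-low side held 1 stressed female, 4 control female, 3 stressed male and 3 control male libraries. Stressed libraries thus made up 5 of 11 on the high side and 4 of 11 on the low side (Fisher's exact test, two-sided, p = 1), and males made up 6 of 11 on each side (p = 1). The replicate numbers separated the sides: all 11 Adora2a-high libraries had numbers up to 5, against 1 of 11 Adora2a-low libraries (two-sided Fisher's exact test, p = 3.4e-05, adjusted over 3 make-up tests 0.000102). That 1 library was female control replicate 4. The labels give no meaning to the numbers, and the split after 5 was chosen with earlier results of these data known. The p-value for that split is thus a description and no independent support. In the 22 libraries the Adora2a level and the number set cannot be told apart, so values within each number set are given after the side comparison.

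The libraries numbered 6 and above also differed from the others in transcripts outside the striatal lists. Sumo2, which encodes a small protein modifier, stood at 8.53 to 12.7 CPM in the Adora2a-high libraries, against 0.058 to 0.68 CPM in 10 Adora2a-low libraries and 8.75 CPM in female control replicate 4. Rps29, a ribosomal protein gene, stood at 165.2 to 280.3 CPM in the Adora2a-high libraries, against 31.2 to 47.4 CPM in those 10 and 224.0 CPM in female control replicate 4. Both genes have near-identical copies elsewhere in the genome, so their counts can depend on how shared reads were assigned, which was not tested. Rn45s, the ribosomal RNA precursor transcript, took 0.1208 to 0.2672% of the counts in 10 Adora2a-high libraries and 1.283% in male stressed replicate 5, against 0.7537 to 2.192% in the 10 Adora2a-low libraries numbered 6 and above and 0.2653% in female control replicate 4. Under the Mbp limit, ribosomal RNA thus moved with the sides and the number sets, and its part in the side differences was not tested. Over the limit, the 4 libraries numbered up to 5 had 1.088 to 2.172%. Those values lay within the range of the 10 Adora2a-low libraries numbered 6 and above. Female control replicate 6, the only library over the limit numbered 6 and above, had 4.813%. Total counts had a median of 22519080 (18111251 to 84842828) in the Adora2a-high libraries and 33772403 (22965493 to 40633715) in the Adora2a-low libraries. Male stressed replicate 5, on the high side, also stood apart, with 2877 CPM of the choroid plexus transcript Ttr, against 0 to 10.3 CPM in the other 10 Adora2a-high libraries. Xist and Ddx3y matched the labelled sex in all 38 libraries.

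Levels from here on are CPM on library sizes scaled by the trimmed mean of M-values (TMM), and side differences are means of log2 CPM in Adora2a-high minus Adora2a-low libraries with their SE. Of 15872 genes with enough counts, 92 were higher in every Adora2a-high library than in any Adora2a-low library (0.58%), and 39 were lower in every one (0.246%). Differences of at least 1 were found for 160 genes (1.01%), and of -1 or less for 303 (1.91%). The median difference over all genes was -0.01. Female control replicate 4 decides how many genes separate the sides: without it, 489 were higher and 343 lower. Because the rule used this contrast, the counts are a description and carry no test.

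The 3 striatal lists were higher in the Adora2a-high libraries almost throughout. Of their 34 genes, all in the table and all with enough counts, 33 had a difference above 0 and 12 did not overlap between sides, with a median difference of 0.90. Among all genes, 48.3% had a difference above 0. The striatal markers thus went with the working name, with the exceptions given below for Sp9, Pdyn and Ptpn5. The name covers only part of the contrast, since the oligodendrocyte genes were higher by as much (10 of 10 above 0, median 0.98).

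Indirect-pathway genes other than Adora2a had a median difference of 0.75, with 4 of 5 above 0 and 2 without overlap. Drd2, the D2 dopamine receptor gene (chromosome 9, 49340360 to 49408177), ranged over 87.2, 102.2 and 146.4 CPM (lowest, median, highest) in the Adora2a-high libraries, against 46.3, 68.6 and 83.6 CPM in the Adora2a-low libraries. The 2 ranges did not overlap, and the difference was 0.70 ± 0.11. Penk, which encodes the enkephalin precursor, ranged over 836.6, 979.9 and 1387 CPM in Adora2a-high libraries, against 431.0, 635.1 and 816.2 CPM in Adora2a-low libraries. It too separated the sides, by 0.75 ± 0.12. Gpr52, an orphan receptor gene coupled to cAMP, differed more, by 1.20 ± 0.21, but its sides overlapped. Gpr6, another orphan receptor gene of these neurons, had 23.7 to 43.1 CPM in Adora2a-high libraries and 11.3 to 23.7 CPM in Adora2a-low libraries. Those ranges met at their edges, where female control replicate 7 on the low side had 23.75 CPM, and the difference was 0.76 ± 0.13. Sp9, a transcription factor gene needed for these neurons to form, was level, with medians of 28.5 CPM in Adora2a-high and 30.3 CPM in Adora2a-low libraries and a difference of -0.02 ± 0.07.

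All 7 direct-pathway genes had differences above 0, with a median of 0.73, and none separated the sides fully. Drd1, the D1 dopamine receptor gene, ranged over 118.8, 163.5 and 294.5 CPM in Adora2a-high libraries, against 37.2, 77.9 and 129.6 CPM in Adora2a-low libraries. The highest Adora2a-low value was that of female control replicate 4, and the other 10 lay at or below 102.1 CPM. The difference was 1.21 ± 0.20. Tac1, the substance P precursor gene, ranged over 73.7, 108.7 and 180.7 CPM in Adora2a-high libraries, against 42.5, 54.4 and 75.9 CPM in Adora2a-low libraries. Here too female control replicate 4 held the highest low-side value, and the difference was 1.00 ± 0.14. Slc35d3, a transporter gene needed to traffic the D1 receptor in mice, differed by 1.28 ± 0.18, and Chrm4, the M4 muscarinic receptor gene, by 0.73 ± 0.11. Pdyn, the dynorphin precursor gene, did not follow them. It ranged over 123.1, 157.6 and 224.7 CPM in Adora2a-high libraries, against 103.3, 158.3 and 171.1 CPM in Adora2a-low libraries. The medians were nearly the same, and the difference was 0.12 ± 0.11.

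Genes shared by both projection neuron types held most of the separation: all 22 were above 0, 10 did not overlap, and the median was 0.97. Scn4b, a sodium channel beta subunit gene, differed by 2.20 ± 0.28. That was the greatest difference among genes that separated the sides, leaving out unnamed gene models and genes with a mean under 1 CPM. Scn4b was also the gene with the greatest difference in this list. Its levels ranged over 280.0, 433.9 and 756.1 CPM in Adora2a-high libraries, against 32.4, 101.2 and 238.7 CPM in Adora2a-low libraries. Ido1, which encodes a tryptophan-degrading enzyme, differed by 1.91 ± 0.22 at low levels.

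Phosphodiesterase, cyclase and G protein genes of the same list were higher in Adora2a-high libraries as well. Pde10a, the striatal cAMP and cGMP phosphodiesterase gene, ranged over 418.5, 522.5 and 919.4 CPM in Adora2a-high libraries, against 161.7, 244.2 and 380.3 CPM in Adora2a-low libraries. These did not overlap, with a difference of 1.12 ± 0.17. Ppp1r1b encodes DARPP-32, the phosphatase inhibitor through which dopamine acts in these cells (chromosome 11). Its values ranged over 470.5, 597.0 and 784.1 CPM in Adora2a-high libraries, against 176.9, 346.9 and 477.0 CPM in Adora2a-low libraries. Female control replicate 7, with 477.0 CPM, overlapped male control replicate 5, with 470.5 CPM, and the difference was 0.92 ± 0.15. Rgs9, a regulator of dopamine receptor signalling, differed by 1.08 ± 0.15, and Adcy5, the main striatal adenylyl cyclase gene, by 0.58 ± 0.08 without overlap. Gnal, the olfactory-type G protein alpha subunit gene, differed by 0.28 ± 0.08, and Ptpn5, the gene of the striatal-enriched phosphatase STEP, by 0.10 ± 0.07. In the wider list of dopamine receptor and cAMP signalling genes, 12 of 12 with enough counts were above 0 and 5 did not overlap. Drd4, the thirteenth gene of that list, had too few counts to be described.

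**Figure D2:**
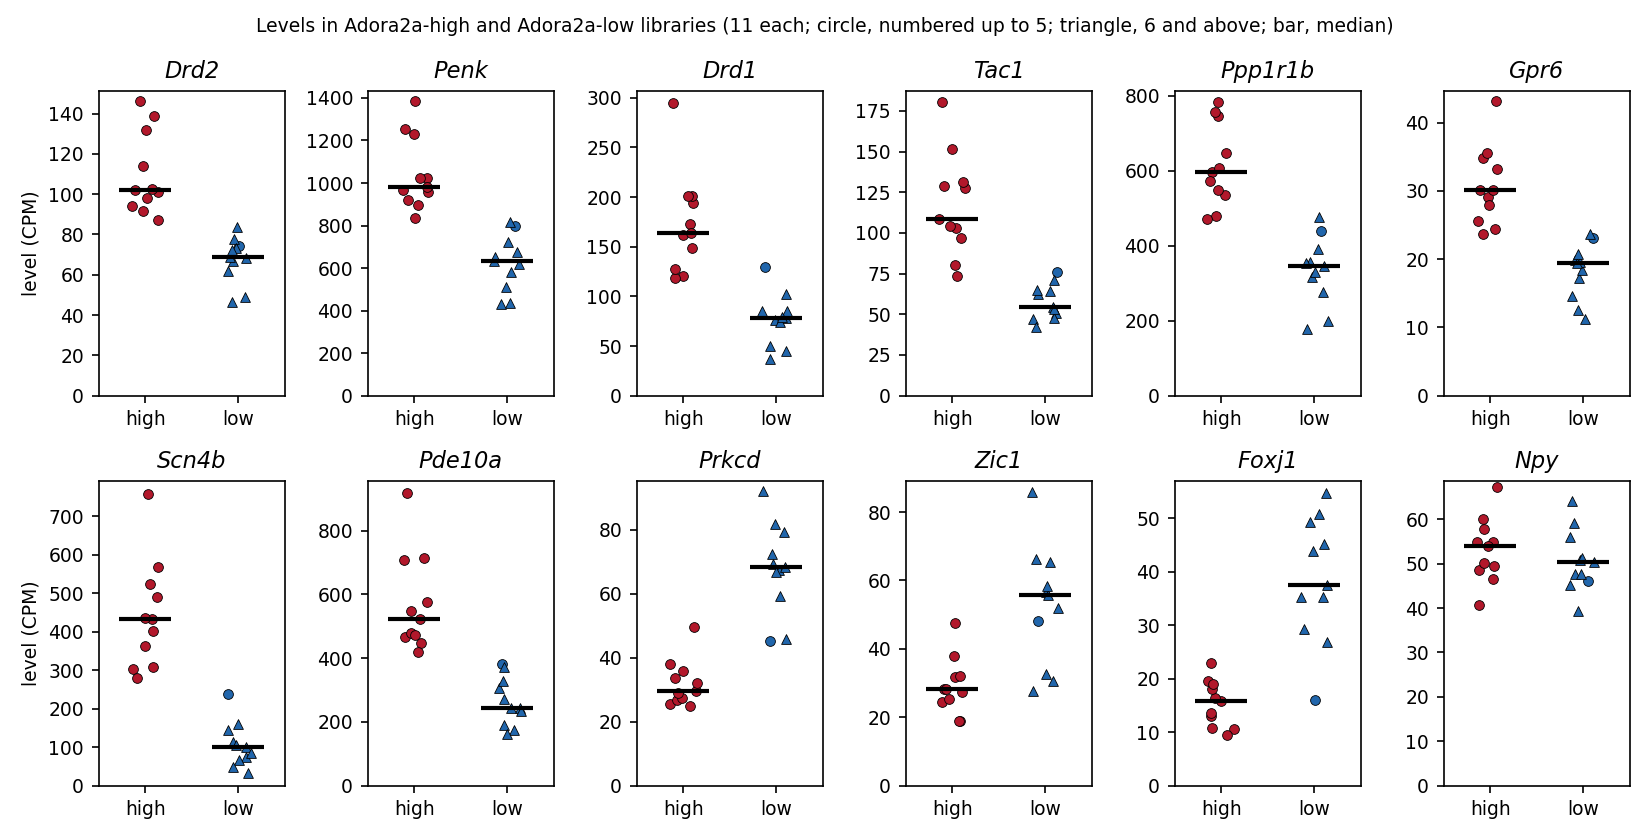
Levels (vertical axes, CPM, each from 0) of 12 genes in the 11 Adora2a-high libraries (left, red) and the 11 Adora2a-low libraries (right, blue); circles are libraries numbered up to 5, triangles 6 and above, and bars are medians. Drd2, Penk, Scn4b and Pde10a separate fully, the single blue circle (female control replicate 4) lies nearest the red points for Drd1, Tac1, Scn4b, Pde10a and Foxj1, and Npy is level.

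Gene models that have only a clone number and genes with a mean under 1 CPM were passed over. The 10 genes with the greatest differences among those higher without overlap were Scn4b, Acvr1c, Cd4, Krt20, Clec12a, Ptprv, Gask1b, Krt9, Kcnj2 and Ddit4l. Acvr1c, the activin receptor-like kinase 7 gene, had a median of 29.5 CPM in Adora2a-high and 9.56 CPM in Adora2a-low libraries, a difference of 1.83 ± 0.25. Cd4, best known as the T-helper cell co-receptor gene, had 23.6 to 50.1 CPM in Adora2a-high libraries and 5.13 to 17.1 CPM in Adora2a-low libraries. Kcnj2, an inward-rectifier potassium channel gene, had 43.4 to 97.1 CPM in Adora2a-high libraries and 11.5 to 41.8 CPM in Adora2a-low libraries. In the other direction the 10 genes were Morn3, Rasd1, Bbox1, Map3k19, Vit, Ntsr1, Glt8d2, Sstr5, Icosl and Boc. Morn3 had medians of 0.56 CPM in Adora2a-high and 2.16 CPM in Adora2a-low libraries. Rasd1, a dexamethasone-induced Ras gene, had 2.62 to 5.92 CPM in Adora2a-high libraries and 6.30 to 13.9 CPM in Adora2a-low libraries, a difference of -1.19 ± 0.14. Ntsr1, a neurotensin receptor gene, had 4.61 to 9.29 CPM in Adora2a-high libraries and 9.52 to 19.5 CPM in Adora2a-low libraries.

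Over the 33 ranked libraries, the 8 genes whose order was most like that of Adora2a among 13747 genes were Pde1b, Drd2, Hpca, Rasgef1a, Syndig1l, Rbp4, Ppp1r1b and Gnb5. Their Spearman correlations lay between 0.918 (Gnb5) and 0.956 (Pde1b), as a description over libraries that share number sets. Within the 16 libraries numbered up to 5 the value for Pde1b, a calcium-dependent phosphodiesterase gene, was 0.915, and within the 17 numbered 6 and above it was 0.904. Hpca encodes hippocalcin, a neuronal calcium sensor, and stood at 0.900 and 0.855 within those sets. Rbp4, a retinol carrier gene, was a low-level example, with 5.74 to 9.79 CPM in Adora2a-high libraries and 1.66 to 5.43 CPM in Adora2a-low libraries.

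Lists for other cell types and regions moved with the sides too. All 10 oligodendrocyte genes were higher in Adora2a-high libraries (median difference 0.98), although the Mbp limit had removed the libraries richest in Mbp. Their summed level was 9550 to 16600 CPM in Adora2a-high libraries and 4690 to 12500 CPM in Adora2a-low libraries. Mbp, the myelin basic protein gene, ranged over 3244, 4303 and 6427 CPM in Adora2a-high libraries, against 1830, 2114 and 4341 CPM in Adora2a-low libraries. Female control replicates 4 and 7 held the highest 2 low-side values. Myelin transcripts thus moved with the sides, and their part in the striatal differences was not tested.

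All 6 ependymal genes were lower in Adora2a-high libraries, with a median difference of -1.43. Foxj1, the master regulator gene of motile cilia, ranged over 9.42, 15.9 and 23.0 CPM in Adora2a-high libraries, against 15.9, 37.5 and 54.8 CPM in Adora2a-low libraries. The overlap came from female control replicate 4, which had the lowest value of its side. Tmem212, another ciliated-cell gene, differed by -2.04 ± 0.33. Septal genes were also all lower (7 of 7, median -0.69). Zic1, a transcription factor gene of the septum, ranged over 18.8, 28.3 and 47.6 CPM in Adora2a-high libraries, against 27.8, 55.8 and 85.9 CPM in Adora2a-low libraries. Its sides overlapped widely. Hypothalamic and preoptic genes were lower in 5 of the 5 that had enough counts (median -0.49), and the other 6 of that list, Hcrt and Pmch among them, had too few counts.

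Genes of the BNST and extended amygdala were lower in Adora2a-high libraries in 14 of 17 cases, with a median of -0.35 and no gene without overlap. Prkcd, the protein kinase C delta gene of oval-nucleus neurons, ranged over 24.9, 29.7 and 49.5 CPM in Adora2a-high libraries, against 45.2, 68.4 and 92.0 CPM in Adora2a-low libraries. Only female stressed replicate 5 of the high side passed the lowest low-side value, that of female control replicate 4, and the difference was -1.08 ± 0.13. Cyp19a1, the aromatase gene, differed by -0.77 ± 0.51 with wide overlap, Esr1, the estrogen receptor alpha gene, by -0.53 ± 0.20, and Cartpt, a neuropeptide precursor gene, by -0.52 ± 0.14. Crh, the corticotropin-releasing hormone gene, differed by -0.03 ± 0.25 and Nts, the neurotensin precursor gene, by -0.31 ± 0.14. Prkcd, Crh, Nts and Cartpt, which mark BNST neurons, were thus detected on both sides.

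Interneuron genes went both ways, and Npy and Sst were the closest to level. Npy, the neuropeptide Y gene, ranged over 40.6, 54.1 and 67.3 CPM in Adora2a-high libraries, against 39.4, 50.3 and 64.2 CPM in Adora2a-low libraries. The ranges overlapped almost fully, with a difference of 0.07 ± 0.08. Sst, the somatostatin gene, differed by -0.14 ± 0.07. Pvalb, the parvalbumin gene, differed by 0.84 ± 0.43 and Pthlh, a peptide hormone gene, by 0.52 ± 0.17. Calb2, the calretinin gene, differed by -0.87 ± 0.24 and Nos1, the neuronal nitric oxide synthase gene, by -0.44 ± 0.12. All 5 cholinergic genes were higher in Adora2a-high libraries (median 0.67), among them Chat, the acetylcholine synthesis gene, by 0.51 ± 0.13. Of 16 immediate early genes, 15 were higher (median 0.39), led by Egr2 (1.04 ± 0.35) and Egr3 (1.02 ± 0.18). Among 9 potassium and HCN channel genes, 8 were higher (median 0.62) and Kcnj2 alone did not overlap. Kcnq3 and Kcnq5, which encode subunits of the M-current channel, each differed by 0.62, with SEs of 0.10 and 0.11.

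Pallial glutamatergic genes had a median of -0.37, close to that of the BNST list. In the other lists, median differences were 0.16 for thalamic and 0.16 for endothelial genes, 0.14 for adenosine receptors and enzymes other than Adora2a, -0.07 for astrocyte genes and -0.07 for endocannabinoid genes. They were -0.08 for genes of dopamine terminals, -0.14 for GABA interneurons, -0.15 for microglia and -0.17 for fibroblasts. Striosome and matrix genes had a median of 0.20 and went both ways: Id4 differed by 0.96 ± 0.15 and Oprm1, the mu opioid receptor gene, by -0.65 ± 0.22. Ribosomal protein genes had a median of 0.19 over 76 genes and oxidative phosphorylation subunits 0.10 over 80. Adora1, the A1 adenosine receptor gene, differed by 0.17 ± 0.06, and Cnr1, the CB1 cannabinoid receptor gene, by 0.26 ± 0.12. Choroid plexus genes had a median of -0.14 with male stressed replicate 5 and -0.63 without it. Leaving out that library changed the striatal medians little, to 0.76 for indirect-pathway, 0.75 for direct-pathway and 0.99 for shared genes.

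With no Mbp limit, so that the 5 libraries rich in Mbp could enter the sides, many list medians lay further from 0. They were 1.16 for indirect-pathway, 1.18 for direct-pathway and 1.23 for shared genes. Ribosomal protein genes then had a median of 0.69 with 75 of 76 above 0, and oxidative phosphorylation subunits 0.53 with 70 of 80 above 0. Immediate early genes had 0.70, septal genes -1.07, and hypothalamic and preoptic genes -1.10. GABA interneuron genes turned to 0.55, and fibroblast genes had -0.64.

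**Figure D3:**
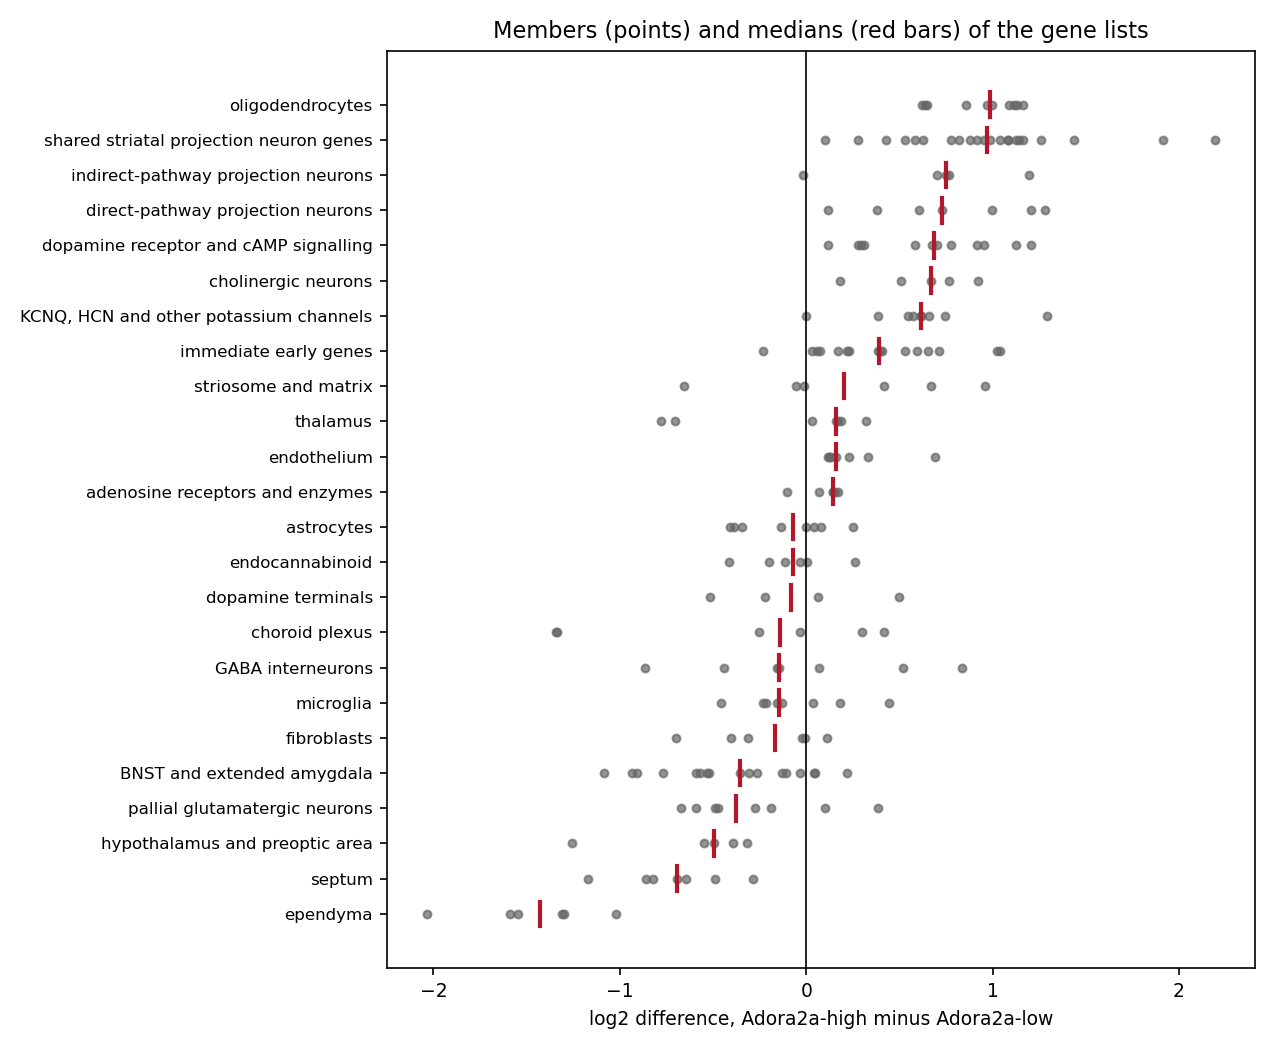
Log2 differences (horizontal axis, Adora2a-high minus Adora2a-low) of the members of 24 gene lists (rows), with a grey point for each gene and a red bar for each list's median. Oligodendrocyte and striatal projection neuron lists lie highest, with medians of 0.73 to 0.98, and ependymal (-1.43) and septal (-0.69) lists lie lowest.

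To see which genes followed Adora2a where the replicate numbers did not change, each gene's slope on log2 Adora2a was fitted inside each number set, as log2 change per doubling of Adora2a. This was done for the 10495 genes with a mean of at least 10 CPM, and was added after the data had been seen. A slope of at least 0.5 in both sets was found for 68 genes (0.648%), and one of -0.5 or less in both for 48 (0.457%). Of the 33 striatal genes with enough counts, 20 had slopes of at least 0.5 in both sets: 4 of 5 indirect-pathway, 2 of 7 direct-pathway and 14 of 21 shared genes. Slopes are given with their SE and no test, because a slope on Adora2a uses the same values as the ranking.

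Of the 10 dopamine receptor and cAMP signalling genes with enough counts, 6 had slopes of at least 0.5 in both sets. Ppp1r1b had 0.94 ± 0.11 in libraries numbered up to 5 and 1.07 ± 0.10 in those numbered 6 and above. Drd2 had 0.84 ± 0.11 and 0.61 ± 0.07 in the same order, and Drd1 0.74 ± 0.20 and 0.98 ± 0.13. Scn4b was steeper, at 1.31 ± 0.20 and 1.49 ± 0.23. Rasd2, the Rhes gene of striatal neurons, had 1.21 ± 0.15 and 0.57 ± 0.12. Cd4, outside the lists, had 1.08 ± 0.21 and 1.35 ± 0.24. Isl1, a transcription factor gene of developing direct-pathway neurons, had -0.10 ± 0.12 and 0.08 ± 0.12, although its side difference was 0.38 ± 0.07.

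The glial lists behaved otherwise. None of the 10 oligodendrocyte genes had a slope of at least 0.5 in both sets, and their median slopes were -0.16 in libraries numbered up to 5 and 0.32 in those numbered 6 and above. Mbp had 0.05 ± 0.20 and 0.43 ± 0.26. Foxj1, with a side difference of -1.30 ± 0.20, had -0.32 ± 0.27 and -0.15 ± 0.19. Prkcd had -0.49 ± 0.20 and -0.08 ± 0.21, set against its side difference of -1.08 ± 0.13. Zic1 had -1.14 ± 0.23 and -0.50 ± 0.32, and Slc17a6, a vesicular glutamate transporter gene, -1.70 ± 0.52 and -1.56 ± 0.34. Npy had 0.32 ± 0.14 and 0.47 ± 0.11 although its sides were level.

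**Figure D4:**
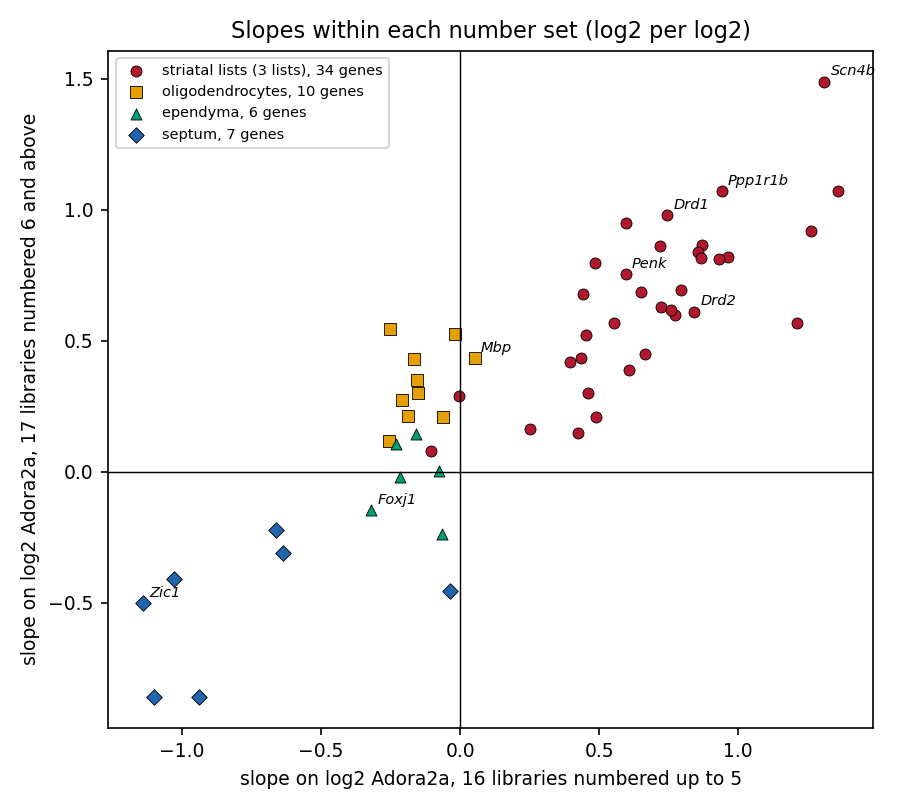
Slope of each gene on log2 Adora2a (log2 CPM per log2 CPM) in the 16 libraries numbered up to 5 (horizontal axis) and in the 17 numbered 6 and above (vertical axis), for striatal, oligodendrocyte, ependymal and septal genes. Striatal genes such as Ppp1r1b (0.94 and 1.07) lie at the upper right, septal genes at the lower left, and oligodendrocyte and ependymal genes near 0 on the horizontal axis.

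The 11 libraries between the sides belong to neither, but the ranking used their Adora2a values, so slopes on Adora2a there are a description and no independent support. Adora2a ranged over only 75.8 to 101.4 CPM in them. With the number set as a term, edgeR's quasi-likelihood test called no gene among 16718 for a slope on Adora2a (0%). By the same test 343 had an unadjusted p under 0.05, against about 836 by chance. DESeq2 called 2, Otx2 and Nr4a2, with negative slopes, and 370 at an unadjusted p under 0.05. Of the 34 striatal genes, 32 had slopes above 0 (median 1.08), against 50.5% of all genes. Other lists were as one-sided: 74 of 76 ribosomal protein genes (median 0.68), 80 of 81 oxidative phosphorylation subunits (median 0.68) and 9 of 9 potassium and HCN channel genes (median 0.39) were above 0. Drd2 had a slope of 1.10 ± 0.39, Penk 1.498 ± 0.51, Ppp1r1b 1.39 ± 0.48 and Scn4b 1.96 ± 0.99. When the 5 libraries over the Mbp limit were added with a term of their own, edgeR again called no gene, and 970 of 16741 had an unadjusted p under 0.05.

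In the libraries over the Mbp limit, Drd2 stood at 182.1 to 220.2 CPM above every ranked library, and Penk at 1143 to 3026 CPM, which overlapped the upper end of the Adora2a-high range. Drd1 stood at 93.4 to 203.0 CPM there and Pde10a at 197.1 to 560.0 CPM, within or below the Adora2a-high range. Npy stood at 98.6 to 218.3 CPM and Sst at 515.5 to 825.9 CPM, higher than in any Adora2a-high or Adora2a-low library.

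The number sets were then compared directly over the 33 ranked libraries, with the 4 label groups as terms. Adora2a averaged 68.7 ± 16.95 CPM in libraries numbered 6 and above (SD, n = 17), against 111.6 ± 25.6 CPM in those numbered up to 5 (SD, n = 16), a log2 difference of -0.74 ± 0.11. It carries no test, since the number sets were compared because the Adora2a ranking split by them. The split after 5 was chosen with earlier results of these data known, so the tests of other genes below describe it. By edgeR's quasi-likelihood test 4907 of 16560 genes rose (29.6%) and 4709 fell (28.4%). Of the 34 striatal genes 31 fell, none rose and the median change was -0.67. All 10 oligodendrocyte genes fell (median -0.92) and all 6 ependymal genes rose (median 1.58). BNST genes rose in 7 of 17 cases and none fell, with Prkcd at 0.96 ± 0.12 (adjusted p = 4.23e-08). The genes with the smallest p were Mir2137, Dnali1, Cfap57, Ubxn10 and Vwa3a among those that rose, and Rps29, Sumo2, Rpl36al, Snord19 and Timm23 among those that fell. Dnali1 and Cfap57 are genes of the ciliary axoneme.

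With log2 Adora2a as a further term in edgeR's test, 3329 of 16806 genes rose (19.8%) and 3284 fell (19.5%). The 5 indirect-pathway genes had a median change of -0.03, with Drd2 at -0.03 ± 0.07, Penk at -0.10 ± 0.08 and Gpr6 at 0.10 ± 0.08. Gpr52 fell, by -0.65 ± 0.18 (edgeR adjusted p = 0.00601), and Sp9 was at 0.22 ± 0.09. Ppp1r1b was at 0.11 ± 0.07. Adora2a is itself an indirect-pathway gene, and Drd2 and Ppp1r1b were among the genes most like it in order. Small changes at the same Adora2a level are thus a description and no independent support. Direct-pathway genes still fell in 5 of 7 cases (median -0.39), among them Tac1 at -0.70 ± 0.11 (adjusted p = 2.9e-05) and Drd1 at -0.46 ± 0.13 (adjusted p = 0.00537). Shared genes fell in 13 of 22 cases and rose in 1, Ptpn5. Oligodendrocyte genes fell in 9 of 10 cases (median -0.74), and ependymal genes rose in 6 of 6 (median 1.55).

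Stress was tested as the series' design text states, by sex, treatment and their interaction, in the 33 ranked libraries. Adora2a averaged 96.5 ± 33.5 CPM in stressed females and 88.6 ± 30.8 CPM in control females (SD, n = 7 and 8), a log2 change of 0.12 ± 0.25. It averaged 81.2 ± 29.3 CPM in stressed males and 93.2 ± 32.3 CPM in control males (SD, n = 9 each), a log2 change of -0.19 ± 0.23. Neither passed the test (edgeR adjusted p = 1 and 0.959), and the values of all 4 groups overlapped widely. No gene passed among 16467 (0%) in females, in males, in the interaction or averaged over the sexes. At an unadjusted p under 0.05 there were 310, 1097, 780 and 395 genes by edgeR, and by DESeq2, which also called none, 348, 1166, 847 and 428. Chance alone gives about 823 in each edgeR test. With the number set as a term edgeR again called none, but the counts at an unadjusted p under 0.05 were over 1.5 times as high, at 507, 1982, 1551 and 734.

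The striatal genes lay to the same side of 0 as Adora2a in each sex without any passing the test. In females 26 of 34 had a change above 0 (median 0.06, against 0.0019 over all genes). In males 32 of 34 were below 0 (median -0.17, all genes -0.01), for example Tac1 at -0.48 ± 0.24 and Ppp1r1b at -0.24 ± 0.21. Other lists lay to the same side in males, by as much or more: 73 of 76 ribosomal protein genes (median -0.22), 79 of 81 oxidative phosphorylation subunits (median -0.20) and 15 of 16 immediate early genes (median -0.38) were below 0. In females 62 of 76 ribosomal protein genes (median 0.06) and 50 of 81 oxidative phosphorylation subunits (median 0.02) were above 0. With log2 Adora2a as a term the striatal medians were -0.07 in females and 0.02 in males. With the number set as a term they were 0.09 and -0.27. The interaction, males minus females, had a median of -0.26 over the striatal genes, -0.28 over ribosomal protein genes, -0.22 over oxidative phosphorylation subunits and -0.38 over immediate early genes, and no gene passed.

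Stress was also fitted inside each side, with sex as a term. Chance alone gives about 837 genes at an unadjusted p under 0.05 in each edgeR test on both sides. Inside the Adora2a-high side, with 5 stressed and 6 control libraries, no gene of 16735 passed (0%), and 1841 had an unadjusted p under 0.05 by edgeR and 1959 by DESeq2. That edgeR count was 765 without male stressed replicate 1, and 1233 without male stressed replicate 5, the library high in Ttr. Inside the Adora2a-low side, with 4 stressed and 7 control libraries, no gene passed, and 598 had an unadjusted p under 0.05 by edgeR and 662 by DESeq2. Without female stressed replicate 7 that edgeR count was 358. The difference of the stress effects between the sides, tested directly, gave no gene past the threshold and 367 at an unadjusted p under 0.05 by edgeR (404 by DESeq2). Striatal genes had median stress changes of -0.14 inside the high side and -0.30 inside the low side. In the same order, ribosomal protein genes had -0.07 and -0.10, and immediate early genes 0.03 and -0.37. Prkcd changed by 0.37 ± 0.15 inside the high side and 0.33 ± 0.15 inside the low side, with edgeR adjusted p of 0.452 and 0.997.

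**Figure D5:**
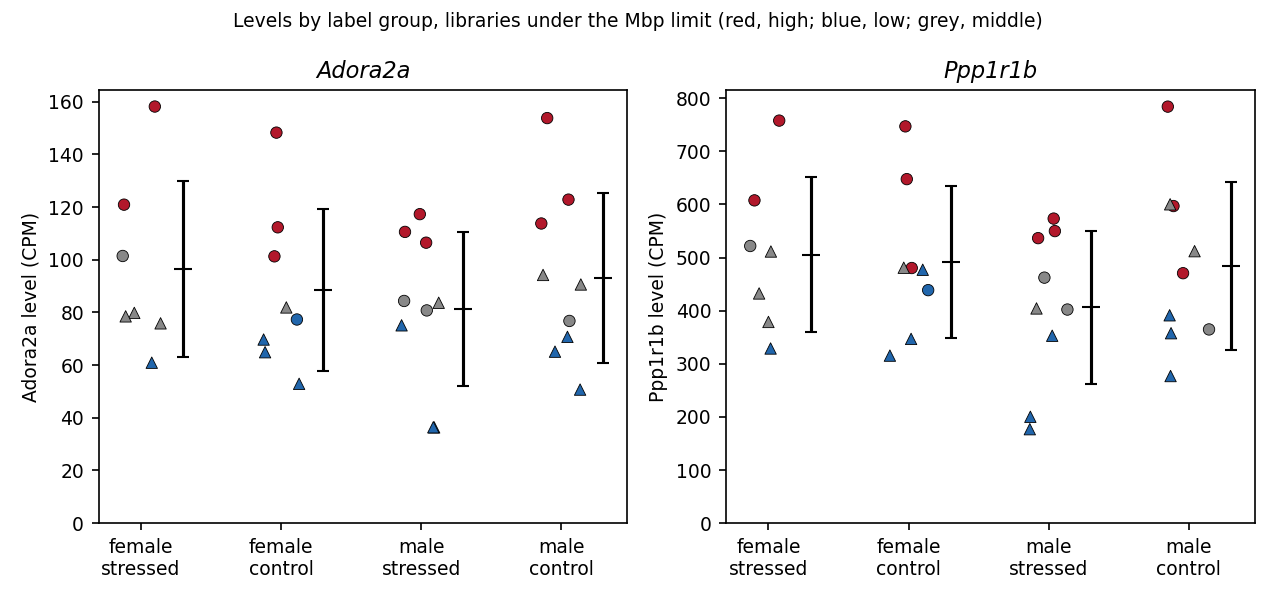
Levels (vertical axes, CPM from 0) of Adora2a and Ppp1r1b in the 33 ranked libraries by label group, stressed left of control within each sex; red points are Adora2a-high, blue Adora2a-low and grey neither, circles are numbered up to 5 and triangles 6 and above, and the bars beside them are means ± SD. Each group spans high and low libraries, and Adora2a means lie between 81.2 CPM in stressed males and 96.5 CPM in stressed females.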

How the data were processed

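Polyadenylated RNA from adBNST microdissections was sequenced with a stranded TruSeq kit, per the labels' protocols. The authors deposited 1 table of read counts per gene for all 38 libraries, and the submitters' processing notes name STAR, featureCounts, DESeq2 and the mm10 build. The sources used here give neither versions nor the strand setting of the counting, so reads of overlapping antisense genes may be mixed. The table has 25230 genes, of which 3439 have no count. Total counts ran from 9064136 to 84842828 per library (median 27323060), and no 2 libraries of a group agreed within sampling noise.

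The sides were chosen on CPM of column totals. All other levels use TMM-scaled library sizes from edgeR 4.0.16 in R 4.3.3, and log2 values have a prior count of 2. Genes passed a filter on low counts (filterByExpr, by side or group). Tests were edgeR's quasi-likelihood tests with Benjamini-Hochberg adjustment over all genes tested and a threshold of 0.05. DESeq2 1.42.0 was an alternative, and the scripts were tested on simulated counts. Gene coordinates are from RefSeq GRCm38.p6.

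The members and gene lists were chosen with earlier results of these data known. Values are named for Adora2a, Mbp and a fixed panel of 21 genes (1 of which is not reported here), up to 4 list members with the greatest differences, the 10 genes in each direction with the greatest differences without overlap, the 8 genes most like Adora2a and those with the smallest p. List members named beyond this rule, among them Sp9, Pde1b, Adcy5, Rasd2, Gnal, Ptpn5, Isl1, Kcnq3, Kcnq5 and Slc17a6, were chosen after their values were seen, as were Sumo2, Rps29 and Ttr. Same-numbered libraries of stressed and control groups share a number and so a number set, and the labels do not say that they are pairs.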

Additional observations from a re-analysis of the deposited data

Results flagged for a closer look

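In 92 sets of values (23 genes in 4 label groups of the ranked libraries), 4 had 1 library far from the others of its group, where chance gives about 1 in 20. Drd2 was 146.4 CPM in male control replicate 4, an Adora2a-high library, against 61.7 to 101.3 CPM in the other 8 male controls. Gpr6 was 34.85 CPM in female control replicate 2, also Adora2a-high, against 17.2 to 25.6 CPM in the other female controls. Prkcd was 92.03 CPM in female stressed replicate 7, an Adora2a-low library, against 33.5 to 53.1 CPM in the other stressed females. Cyp19a1 was 4.829 CPM in female control replicate 10, also Adora2a-low, against 0.713 to 2.50 CPM in the other female controls.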

How the results depend on the processing

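The count of genes separating the sides, 131 (92 higher, 39 lower), moved with the choice of libraries. It was 644 (378 higher, 266 lower) when Adora2a was ranked on TMM-scaled CPM, which shared 10 libraries with each side and dropped female control replicate 4. It was 378 with no Mbp limit (236 higher, 142 lower). With 8 libraries a side it was 1429 (767 higher, 662 lower), but separation is easier to reach with fewer libraries. Of these, 8 were numbered up to 5 on the high side and 0 on the low side. Ranking on Drd2 gave 87 (72 higher, 15 lower) and on Ppp1r1b 72 (43 higher, 29 lower). Of the 131 genes, only 50 separated the sides ranked on Drd2, and only 15 those ranked on Ppp1r1b. The Drd2 ranking shared 9 high-side and 10 low-side libraries with the main one, and the Ppp1r1b ranking shared 9 on each side. These rankings also changed the number sets of the sides. On the high side 10 libraries were numbered up to 5 with Drd2 and 9 with Ppp1r1b. On the low side 2 and 1 were. Which genes separate the sides thus changed with the ranking, and the parts of the ranking gene and of single libraries cannot be told apart. With libraries numbered up to 5 alone, 11 against 1, it was 1499 and the median of the striatal lists 0.3791. No value exists for numbers 6 and above, which hold no Adora2a-high library. Leaving out 1 library gave a count of 174 genes without male stressed replicate 5 and 832 without female control replicate 4. The cause of these shifts was not tested. For the slope in the libraries between the sides, DESeq2 called 2 genes. Same-numbered stressed and control libraries had correlations of 0.04 to 0.52 over 6 female pairs and -0.11 to 0.69 over 8 male pairs. Medians over other pairs were lower, at -0.242 in females and -0.084 in males. The best match had the same number in 0 of 6 female and 1 of 8 male cases. Same-numbered libraries also share a number set, so these values do not settle whether they are pairs. The fit with the replicate number as a block called 17 genes for stress in males (4 higher, 13 lower) and changed no other call of a stress test. Of the other alternatives for these comparisons, 100 stayed on the same side of their threshold, within 1.5 times the count or, for the striatal median, within 1 SD. For single named genes 778 alternatives stayed the same by such rules. Another 54 moved a side difference by 1 within-side SD or more, and 2 took a tested gene past its threshold. With 4 to 7 libraries per treatment inside a side, small stress effects may go undetected.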
